A study of Mus musculus with 98 samples.

Results

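Blunt DNA ends that lie far inside a RAG break, the double-strand break made by the recombinase of developing lymphocytes, were followed at 2 places of the mouse pre-B cell genome. The first place was Jk1, a joining segment of the immunoglobulin kappa locus, and the second was an integrated recombination substrate. An end structure was a member when its overhang was 0 and the position of its 5′-ending strand was 22 or more, which corresponds to a loss of 20 nt or more from both strands. Loss was counted from position 2, the lowest position in these tables, so another true origin would shift all losses of a break alike. The members were thus chosen on 2 measured values, position and overhang, so that being blunt and far inside is not a finding, and their losses are described without a test. At Jk1, 74 of 2039 distinct end structures were members, and at the substrate 78 of 2454, which gave 152 members out of 8441 distinct structures over all breaks of the series.

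RAG cuts beside antigen receptor gene segments and leaves a hairpin-sealed coding end and a blunt signal end, and the tables do not say which of them was amplified. Such ends are normally joined by non-homologous end joining, whose last step needs DNA ligase IV, so that without the ligase unrepaired ends persist in G1-arrested cells. H2AX is the histone variant that is phosphorylated along the chromatin beside a break, and 53BP1 is a chromatin reader recruited there. Both are known to limit resection, the nuclease trimming that moves an end inwards, in G1-phase lymphocytes. Resection that removes mainly the 5′-ending strand leaves a 3′ overhang, whereas a blunt end far inside has both strands shortened to the same base.

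The ends were read by HCoDES, in which a single-stranded DNA ligase joins the 2 strands of an end into a hairpin, and sequencing across the joint after bisulfite treatment shows where each strand stopped. All cells were Abelson kinase-transformed pre-B cells in G1 arrest, and all lines lacked ligase IV, the reference lines included. The reference was Lig4-/- (lines A and B), and the other genotypes were Lig4-/- H2AX-/- (lines 5 and 8) and Lig4-/- 53BP1-/- (line B at both breaks, line C at the substrate only). The labels give 48 h for every line but H2AX-/- line 5 and 53BP1-/- line C, carry an unexplained tag, shNT, for Lig4-/- line B and 53BP1-/- line C, and put all lines in sequencing run 4 except H2AX-/- line 8 (run 2) and 53BP1-/- line C (run 6). One library of 53BP1-/- line C also carries the name of H2AX-/- line 5 in its title, and its description says that its reads are mixed with those of another PCR. Each of the 11 tables pools 3 libraries of 1 line, so the cell line was the replicate, and nothing in the labels says how far the lines of a genotype were derived separately. The reads carry DNA ends and no expression, so neither the deletions nor the cell type could be checked from them. The tables held 157970 to 315274 reads at Jk1 and 72923 to 337917 at the substrate.

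At Jk1 the members took 1.67% (95% Clopper-Pearson interval 1.63% to 1.71%) of all reads in Lig4-/- line A and 2.68% (2.63% to 2.74%) in line B. The share was 2.59% (2.52% to 2.67%) in H2AX-/- line 5, 4.96% (4.86% to 5.07%) in H2AX-/- line 8 and 2.79% (2.72% to 2.85%) in 53BP1-/- line B. Line 8 stood above all other tables, and the other mutant tables lay close to Lig4-/- line B. At the substrate the members took a larger part of the reads, with 6.41% (6.32% to 6.49%) and 4.98% (4.86% to 5.10%) in Lig4-/- lines A and B, 7.86% (7.67% to 8.05%) and 11.3% (11.1% to 11.5%) in H2AX-/- lines 5 and 8, and 7.43% (7.34% to 7.52%) and 6.06% (5.93% to 6.20%) in 53BP1-/- lines B and C. Both H2AX-/- lines exceeded both Lig4-/- lines there, whereas 53BP1-/- line C fell between the Lig4-/- lines. PCR reads are not independent molecules, so these intervals cover counting error only. In the control library, cut with the restriction enzyme KpnI and read with its own primer, blunt ends at position 22 or more took 0.0439% of reads (135 of 307425). Of these, 105 belonged to a single structure. Whether its positions share the scale of the RAG breaks is not stated. Its most abundant end structure had a 3′ overhang of 4 nt, so a low blunt share was fixed by the choice of enzyme.

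A second measure set the members against all reads, of any overhang, whose 5′-ending strand stopped at position 22 or beyond. Such far-inside reads were 22.5% and 43.2% of the table in Lig4-/- lines A and B at Jk1, 83.4% and 81.6% in the H2AX-/- lines and 83.3% in 53BP1-/- line B. At the substrate they were 39.4% and 38.6%, then 93.1% and 90.4%, then 95.6% and 96.9%. The pool of far-inside ends was therefore larger in every mutant table, and the blunt share of that pool moved the other way. At Jk1 the blunt share of far-inside reads was 7.42% and 6.21% in Lig4-/- lines A and B, 3.11% and 6.08% in H2AX-/- lines 5 and 8, and 3.35% in 53BP1-/- line B. At the substrate it was 16.3% and 12.9% in Lig4-/- lines A and B, 8.44% and 12.5% in H2AX-/- lines 5 and 8, and 7.77% and 6.26% in 53BP1-/- lines B and C. Each mutant table was below each Lig4-/- table at the same break by this measure.

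**Figure D1:**
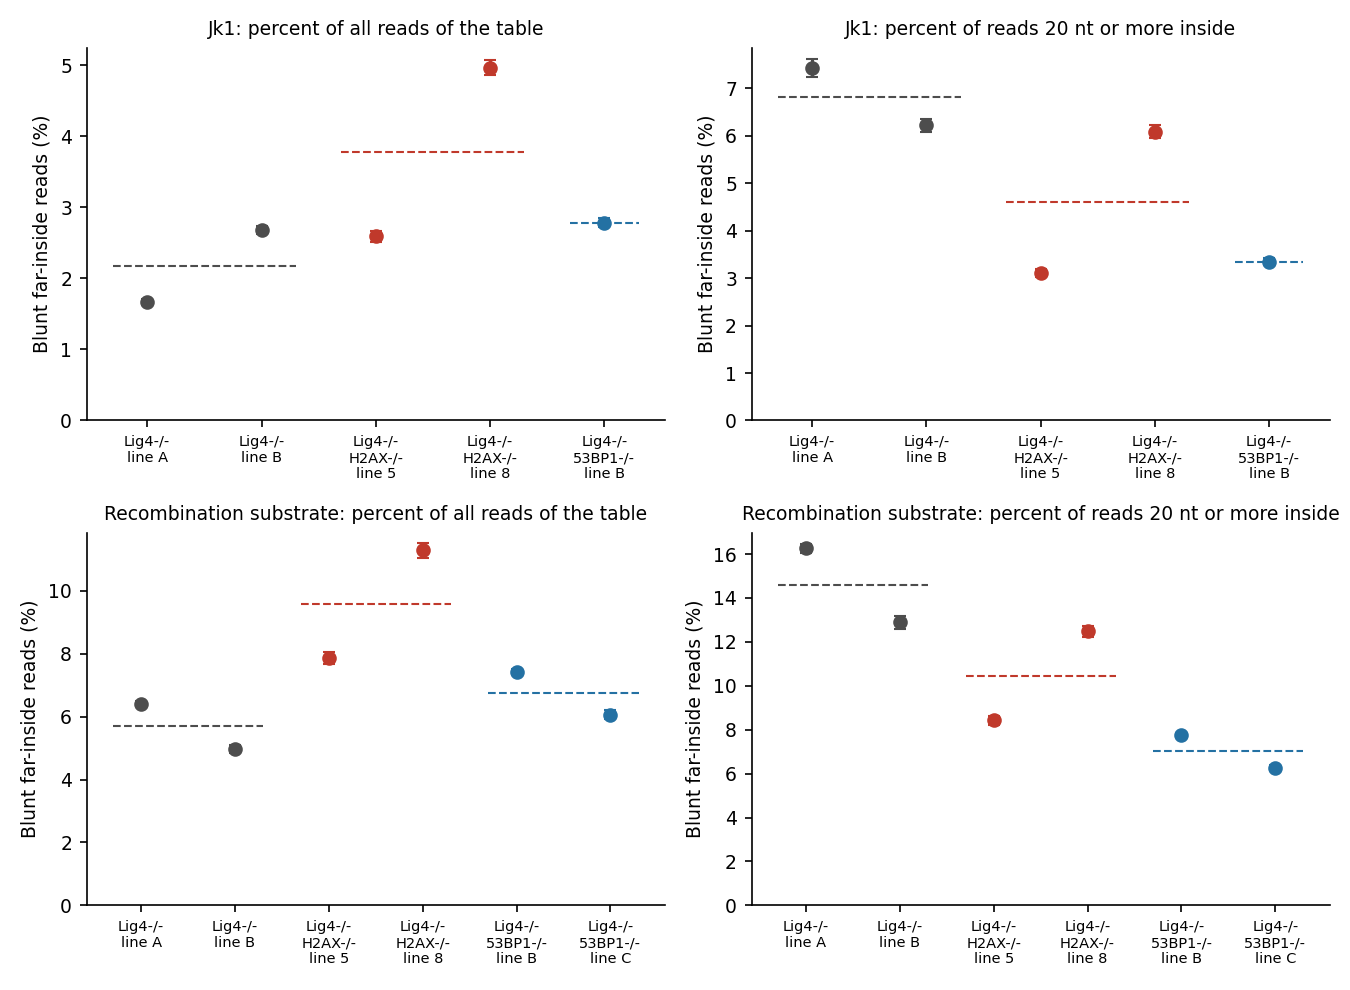
Percent of reads in blunt ends 20 nt or more inside, per cell line, at Jk1 (top) and the substrate (bottom), as a share of all reads (left) or of far-inside reads (right). Points are tables with 95% Clopper-Pearson intervals and dashed lines are means of a genotype; the mutant points lie mostly higher on the left (4.96% in H2AX-/- line 8 at Jk1) and lower on the right (3.35% in 53BP1-/- line B at Jk1).

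Loss of H2AX in addition to ligase IV was compared first. At the substrate the members made up 9.57% ± 2.42 of all reads without H2AX against 5.69% ± 1.01 with it (SD, n = 2 lines each), a difference of 3.88 points. All 4 pairs of lines lay on the same side, and each pair differed by Fisher's exact test on pooled reads with Benjamini-Hochberg adjustment over 28 pairs (largest adjusted p = 1.36e-45). The smallest gap between the genotypes, 1.45 points, was below the 3.43 points by which the H2AX-/- lines differed from each other. The exact permutation test over lines (two-sided) gave p = 0.333, the smallest that 2 against 2 lines allow. Without H2AX-/- line 8, which also restricts the comparison to sequencing run 4, the difference was 2.16 points, and without the most abundant member of each table it was 2.40 points with pairs on both sides of 0.

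At Jk1 the members' share of all reads was 3.78% ± 1.68 without H2AX and 2.18% ± 0.717 with it (SD, n = 2 lines each). The difference of 1.60 points was not called, because H2AX-/- line 5 lay 0.0921 points below Lig4-/- line B (Fisher's exact test, adjusted p = 0.0608; exact permutation p = 0.667). The difference became 2.79 points, with all pairs passing, when line 5 was left out, 2.11 points with all pairs passing without Lig4-/- line B, and 0.415 points within sequencing run 4, which also leaves out H2AX-/- line 8. Run 2 held H2AX-/- tables only, and run 6 a 53BP1-/- table only, so neither gave a value of its own.

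Within the far-inside reads, blunt ends were less frequent without H2AX at the substrate, 10.5% ± 2.86 against 14.6% ± 2.38 (SD, n = 2 lines each), a ratio of 0.717. All pairs passed, the closest being H2AX-/- line 8 and Lig4-/- line B at 0.416 points apart (Fisher's exact test, largest adjusted p = 0.0391; exact permutation p = 0.333, the smallest possible), while lines of a genotype differed by up to 4.04 points. At Jk1 the corresponding values were 4.60% ± 2.10 and 6.82% ± 0.856, a ratio of 0.674. This was not called, since H2AX-/- line 8 and Lig4-/- line B were 0.132 points apart (Fisher's exact test, adjusted p = 0.161; exact permutation p = 0.333). Within run 4, and so without H2AX-/- line 8, the differences were -3.71 points at Jk1, where both remaining pairs passed, and -6.14 points at the substrate. Without H2AX-/- line 5 they were -0.738 and -2.10 points, without Lig4-/- line A the substrate difference was -2.44 points, and without Lig4-/- line B the Jk1 difference was -2.83 points with both pairs passing.

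Loss of 53BP1 was compared with the same 2 Lig4-/- lines, so its differences and those of H2AX share their reference. The blunt share of far-inside reads was 7.01% ± 1.07 without 53BP1 against 14.6% ± 2.38 with it at the substrate (SD, n = 2 lines each), a difference of -7.56 points and a ratio of 0.481. The smallest gap between genotypes, 5.12 points, exceeded the largest gap between lines, 3.36 points, and all 4 pairs passed (Fisher's exact test, largest adjusted p = 1.90e-284; exact permutation p = 0.333, the smallest possible). At Jk1 the single 53BP1-/- line had 3.35% against 6.82% ± 0.856, a difference of -3.47 points and a ratio of 0.491, with gaps of 2.87 points or more against 1.21 points between the Lig4-/- lines. Both Jk1 pairs passed Fisher's exact test, which compares pools of reads, but with 1 mutant line the genotype and the line cannot be told apart (exact permutation p = 0.333, the smallest possible). Within run 4 the substrate difference was -6.81 points; the Jk1 lines compared were all of run 4.

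As a share of all reads the class differed by less between these genotypes. At Jk1 it was 2.79% in the single 53BP1-/- line against 2.18% ± 0.717 (n = 2), with both pairs on the same side (Fisher's exact test, largest adjusted p = 0.0221). The gap to Lig4-/- line B, 0.102 points, was well under the 1.01 points between the Lig4-/- lines, and the exact permutation p was 0.667. At the substrate it was 6.74% ± 0.965 against 5.69% ± 1.01 (SD, n = 2 lines each), a difference of 1.05 points that was not called, since 53BP1-/- line C lay 0.343 points below Lig4-/- line A (exact permutation p = 0.667). Without line C, which is also the value within run 4, the difference was 1.74 points, and without Lig4-/- line A it was 1.77 points, both with all pairs passing; it was 0.371 points without 53BP1-/- line B and 0.340 points without Lig4-/- line B, with pairs on both sides. Leaving out a Lig4-/- line at Jk1 gave 0.102 points without line A and 1.12 points without line B. The direction turned under other settings. With a position minimum of 12 the difference was -0.771 points at Jk1, with pairs on both sides, and -1.19 points at the substrate, where all pairs passed. With each structure counted once it was -0.681 and -1.72 points, and neither was called.

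Blunt ends nearer the break were set beside the members. Blunt reads with less than 20 nt of loss were 19.9% and 13.1% of all reads in Lig4-/- lines A and B at Jk1, 5.40% and 5.78% in the H2AX-/- lines and 6.53% in 53BP1-/- line B. At the substrate they were 12.1% and 13.96% in the Lig4-/- lines, 1.45% and 1.66% without H2AX, and 2.16% and 1.04% without 53BP1. Of all blunt reads, the members accordingly held 7.75% and 17.0% in the Lig4-/- lines at Jk1 and 29.9% to 46.2% in the mutant tables. At the substrate they held 34.6% and 26.3% in the Lig4-/- lines and 77.5% to 87.2% in the mutant tables.

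At Jk1 the members' read-weighted median loss was higher in each mutant table than in the Lig4-/- tables. It was 36 nt in Lig4-/- line A and 85 nt in line B, 92 and 131 nt in H2AX-/- lines 5 and 8, and 119 nt in 53BP1-/- line B. The closest of these medians, 85 nt in Lig4-/- line B and 92 nt in H2AX-/- line 5, were nearer to each other than the lines of either genotype were. The median over far-inside reads of any overhang was 85 and 125 nt in the Lig4-/- lines, 125 and 135 nt in the H2AX-/- lines and 135 nt in 53BP1-/- line B, so that the blunt ends had a lower median loss than the far-inside reads in each Jk1 table. Members with less than 60 nt of loss held 64.5% and 38.3% of the class in the Lig4-/- lines, 30.2% and 6.78% in the H2AX-/- lines and 2.42% in 53BP1-/- line B.

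The member at Jk1 whose line mean differed most upwards without H2AX, by 0.625 points, was the blunt end at a loss of 138 nt. It had 3 reads in Lig4-/- line A and 13 reads in line B, but 0.379% of all reads in H2AX-/- line 5, 0.875% in line 8 and 0.372% in 53BP1-/- line B. All mutant tables stood far above both Lig4-/- tables for this end. Among reads whose 5′-ending strand stopped at that base, the blunt form was 30.6% in H2AX-/- line 5, 48.8% in line 8 and 10.5% in 53BP1-/- line B. It was 0.225% of 1335 such reads in Lig4-/- line A and 38.2% of 34 in line B, so other 3′-strand ends shared the base. Reads whose 3′-ending strand stopped at that base gave another picture. Of these, the blunt form was 0.145% of 2070 and 0.318% of 4085 in Lig4-/- lines A and B. It was 9.48% and 14.1% in H2AX-/- lines 5 and 8 and 8.67% in 53BP1-/- line B.

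The end at 132 nt was likewise high in the mutant tables, with 2 reads in Lig4-/- line A, no listing in line B, and 0.267%, 0.234% and 0.219% in H2AX-/- lines 5 and 8 and 53BP1-/- line B. The end at 83 nt had 0.0251% and 3 reads in the Lig4-/- lines, 0.0462% and 0.323% in the H2AX-/- lines and 0.388% in 53BP1-/- line B, the largest upward difference without 53BP1 at Jk1 (0.375 points). For the end at 105 nt the values were 0.0901% and no listing in the Lig4-/- lines, 0.201% and 0.0988% without H2AX and 0.193% without 53BP1. Of all Jk1 structures, 5.43% were higher in every H2AX-/- line, and 47.3% in the 53BP1-/- line, than in every Lig4-/- line. The share higher in all mutant tables together was not counted. In point values these 4 ends did not overlap between the Lig4-/- and the mutant tables. At 105 nt, however, the Clopper-Pearson intervals of Lig4-/- line A (0.0799% to 0.101%) and H2AX-/- line 8 (0.0839% to 0.116%) overlapped. All 4 ends were also named for their high shares or rises in the mutant tables. Others were high in 1 line only: the end at 141 nt was listed in H2AX-/- line 8 alone, at 0.410%, and the end at 92 nt had 0.315% in H2AX-/- line 5, 2 reads in Lig4-/- line A and no other listing. The end at 87 nt had 0.192% in 53BP1-/- line B, 0.0962% in H2AX-/- line 8 and 0.0584% in Lig4-/- line A. Neither H2AX-/- line 5 nor Lig4-/- line B listed it.

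The largest downward difference at Jk1, in both comparisons, came from 1 line. The blunt end at 145 nt held 1.19% of all reads, and 44.3% of the class, in Lig4-/- line B, while it was not listed in Lig4-/- line A. It had 0.268% in H2AX-/- line 8, 2 reads in line 5 and 3 reads in 53BP1-/- line B, so the Lig4-/- lines disagreed, as did the H2AX-/- lines. The end at 20 nt, the first inside the rule, was the largest member of Lig4-/- line A with 0.221% and had 0.0843% in line B. No H2AX-/- table listed it, and 53BP1-/- line B had 2 reads, so here the genotypes did not overlap. This end was named for its fall, and of all Jk1 structures 14.7% were likewise lower in every H2AX-/- line and 18.6% in the 53BP1-/- line. The ends at 42 and 85 nt were high in Lig4-/- line B, with 0.170% and 0.209%, and not listed in line A, and the end at 65 nt had 0.169% in that line, 2 reads in line A, 2 reads and 0.181% in the H2AX-/- lines and 0.0655% in 53BP1-/- line B. The end at 45 nt, listed in every Jk1 table, ranged from 2 reads in 53BP1-/- line B to 0.164% in Lig4-/- line B.

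**Figure D2:**
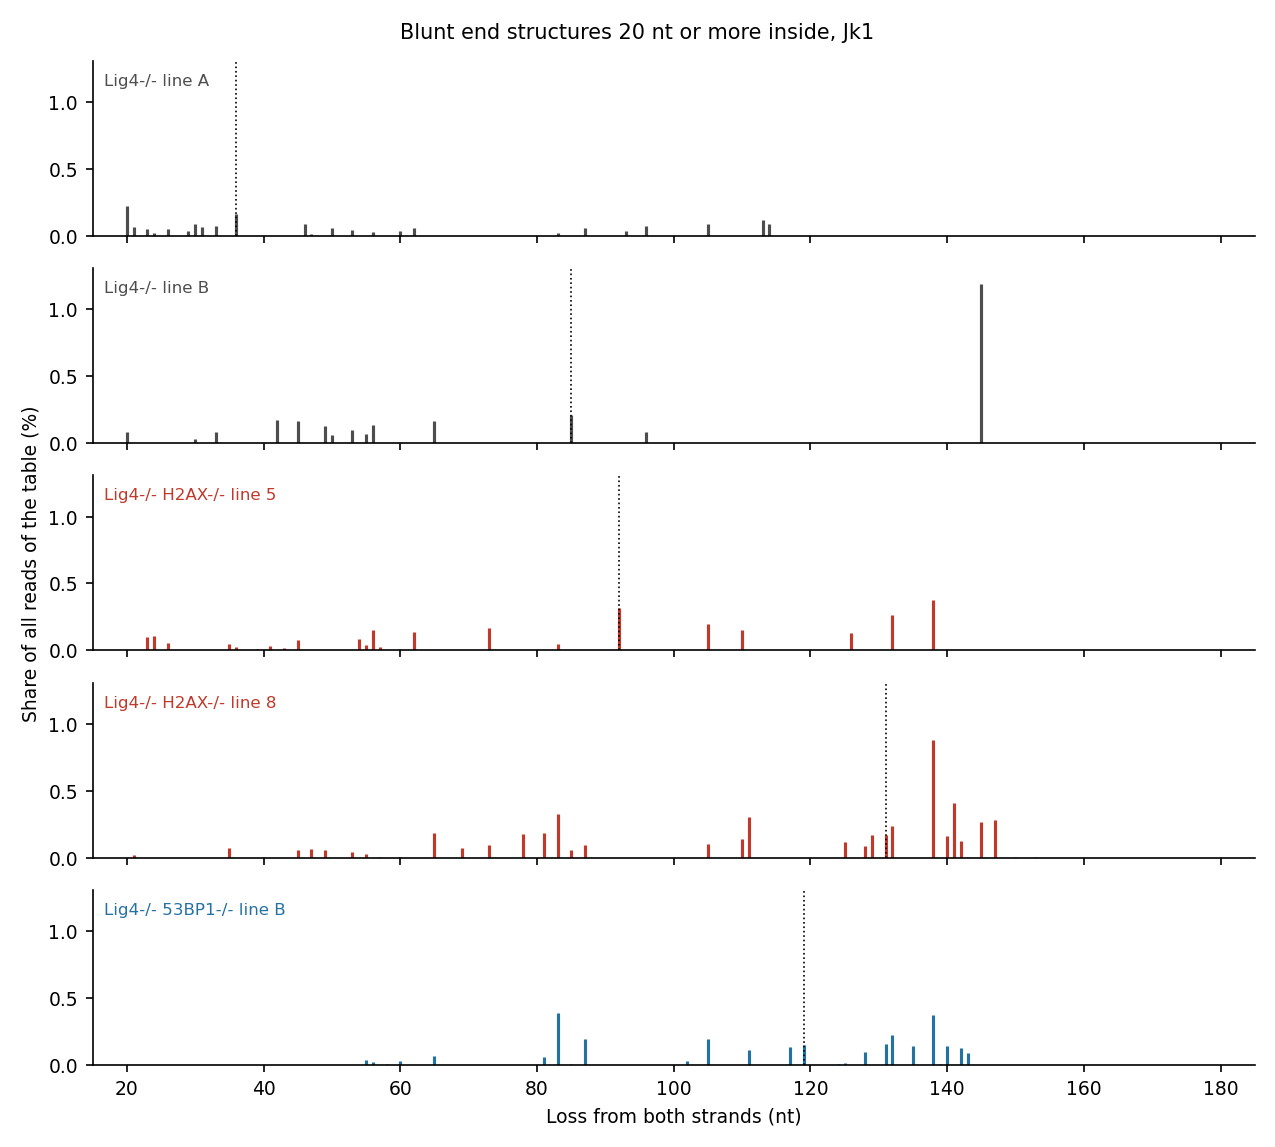
Share of all reads (%) of each blunt member at Jk1 against its loss from both strands (nt), 1 row per table; dotted lines mark the read-weighted median loss. The tall bar at 145 nt belongs to Lig4-/- line B (1.19%), and the bars at 138 nt appear in the mutant rows (0.372% to 0.875%).

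At the substrate, losses of 160 to 179 nt, near the far end of the measured region, held 46.5% and 25.5% of the class in Lig4-/- lines A and B, 67.3% and 64.6% in H2AX-/- lines 5 and 8, and 58.7% and 44.4% in 53BP1-/- lines B and C. In 53BP1-/- line C a larger part, 55.3%, lay at 120 to 139 nt. The median loss was 144 and 102 nt in the Lig4-/- lines, 164 nt in both H2AX-/- lines, and 168 and 132 nt in the 53BP1-/- lines. Both H2AX-/- medians lay above both Lig4-/- medians, whereas 53BP1-/- line C lay between them. For far-inside reads of any overhang the median was 77 and 79 nt in the Lig4-/- lines, 134 and 157 nt in the H2AX-/- lines, and 150 and 137 nt in the 53BP1-/- lines. By these medians blunt ends lay further inside than the far-inside reads in every substrate table but 53BP1-/- line C. At Jk1 the order was the reverse.

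The main substrate member was the blunt end at 170 nt, listed in every table. It took 1.91% of all reads in Lig4-/- line A but 9 reads in line B, 3.56% and 2.12% in H2AX-/- lines 5 and 8, and 1.33% and 0.686% in 53BP1-/- lines B and C. In both H2AX-/- tables it was the most abundant end structure of any kind. Both values exceeded both Lig4-/- values, a rule met by 5.45% of all substrate structures. The difference of 1.88 points in the line mean was the largest of any member without H2AX, although the Lig4-/- lines themselves differed by more than that. Of reads whose 5′-ending strand stopped there, 99.9% were blunt in Lig4-/- line A and in H2AX-/- line 5, and 99.1% in 53BP1-/- line C. The blunt part was 62.7% in H2AX-/- line 8 and 26.2% in 53BP1-/- line B. In Lig4-/- line B 2156 reads stopped at that base, but 0.417% of them were blunt.

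The neighbours of this end varied by line. The end at 164 nt, the other member listed in every table, had 0.577% and 2 reads in Lig4-/- lines A and B, 1.55% and 0.550% in the H2AX-/- lines, and 0.0761% and 1 read in the 53BP1-/- lines, so the Lig4-/- and H2AX-/- values overlapped. The end at 168 nt, named for its rise without H2AX, did not overlap between these genotypes, with 3 and 4 reads against 0.0996% and 0.701%. Of all substrate structures, 5.45% were likewise higher in every H2AX-/- line. In 53BP1-/- line B the end at 168 nt had 0.416%, and line C did not list it. The end at 169 nt was high in 1 line of each genotype, at 0.571% in Lig4-/- line B, 1.01% in H2AX-/- line 8 and 1.05% in 53BP1-/- line B, and had 4 reads, 3 reads and no listing in the other lines. A similar split held for the end at 163 nt, with 0.150% and 0.0679% in the Lig4-/- lines, 0.791% in H2AX-/- line 8 but no listing in line 5, and 0.165% in 53BP1-/- line B but no listing in line C. The end at 162 nt, named in part for its fall without 53BP1, had 0.310% and 0.414% in the Lig4-/- lines. It was lower in 53BP1-/- line B, at 0.212%, and not listed in line C. Of all substrate structures, 18.2% were likewise lower in every 53BP1-/- line. H2AX-/- line 8 had 0.336% of this end and line 5 did not list it.

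Without 53BP1 the largest upward differences at the substrate rested on 1 line each. The end at 132 nt was listed in 53BP1-/- line C alone, with 2.95% of all reads and 48.6% of the class, and the end at 166 nt had 2.01% there and 0.0165% in H2AX-/- line 8, with no other listing. The end at 127 nt had 0.663% in 53BP1-/- line B, 6 reads in line C and 2 reads in each Lig4-/- line. Line C is the line with the library whose reads are mixed with another PCR, and the part of that in these values was not tested. Downward differences also rested on single lines: the end at 144 nt had 0.625% in Lig4-/- line A, was not listed in line B and reached 2 reads in 1 mutant table, and the end at 124 nt had 0.522% in Lig4-/- line A, 3 reads in line B and at most 48 reads in a mutant table. The end at 117 nt was more even, with 0.537% and 0.264% in the Lig4-/- lines, 2 reads and no listing in the H2AX-/- lines, and 0.285% and no listing in the 53BP1-/- lines. It was named in part for its falls, and 18.3% of all substrate structures were likewise lower in every H2AX-/- line.

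**Figure D3:**
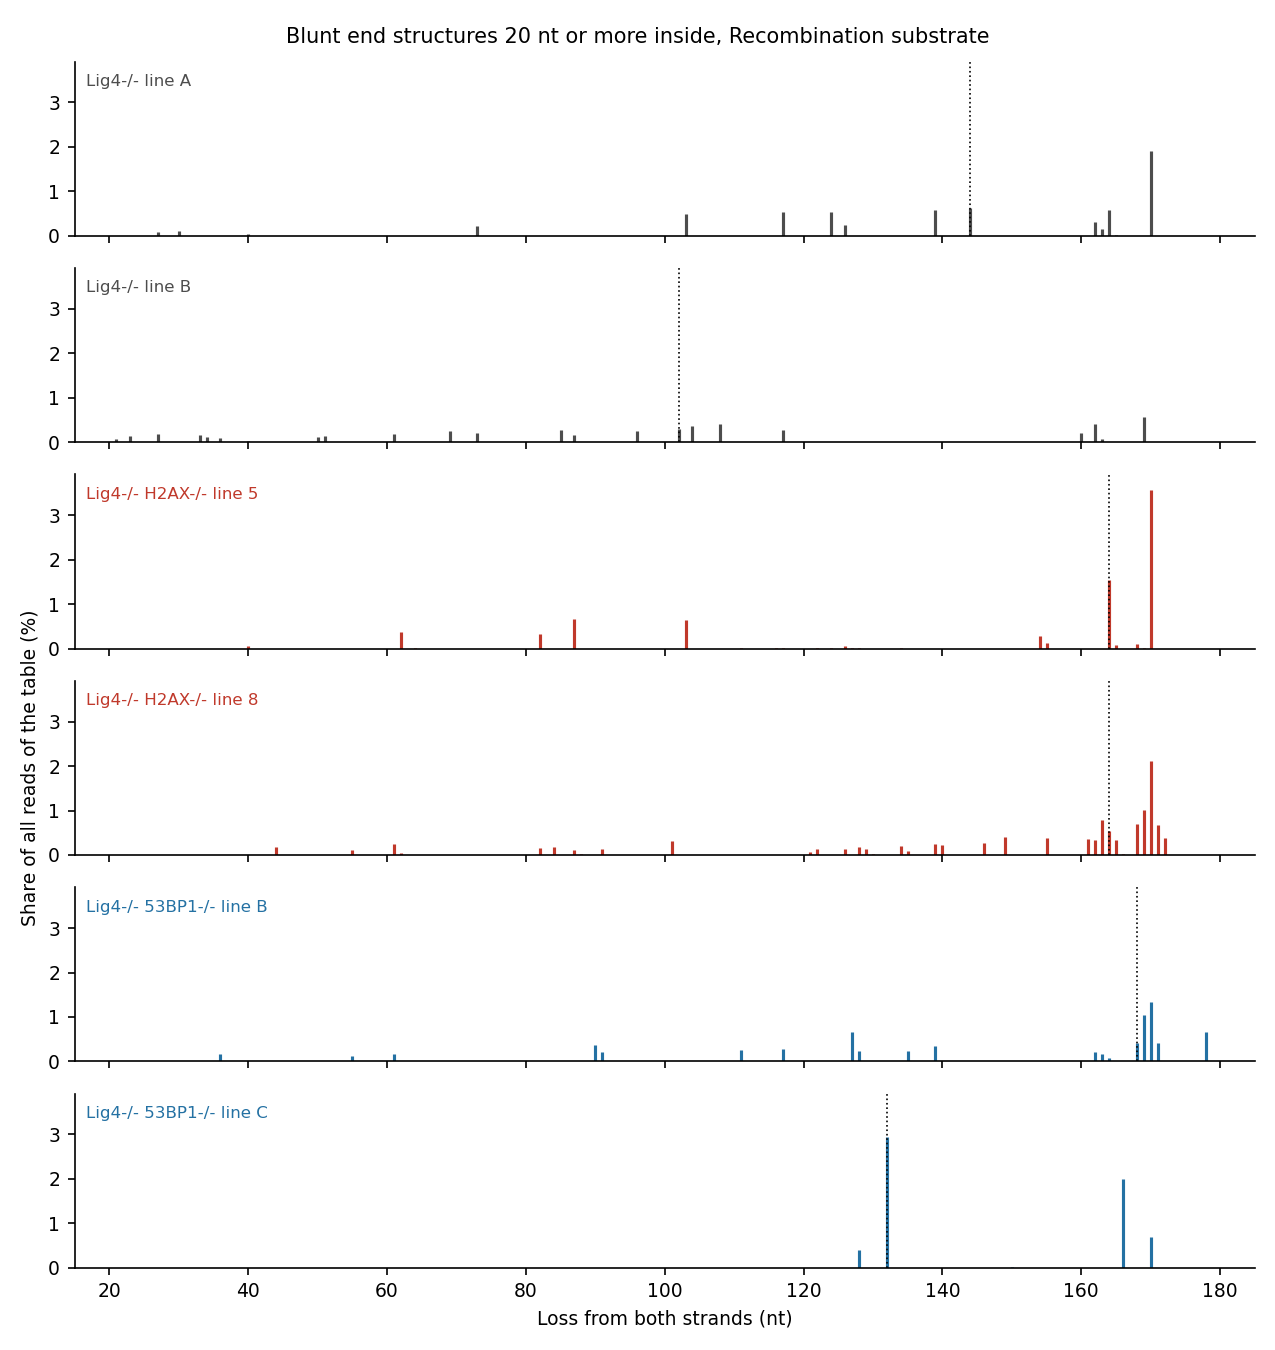
Share of all reads (%) of each blunt member at the substrate against its loss from both strands (nt), 1 row per table; dotted lines mark the read-weighted median loss. The bar at 170 nt is the tallest in both H2AX-/- rows (3.56% and 2.12%) and is missing to the eye in Lig4-/- line B, where it had 9 reads.

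Every member was accounted for by counting, in each comparison, those that were higher in every mutant line than in every Lig4-/- line, an unlisted end being placed below any listed one. Without H2AX at Jk1, 9 of 69 members were higher (13.04%), against a background of 5.43% of all structures and 6.12% of far-inside structures that met the rule. Another 6 (8.70%) were lower, against 14.7% of all and 8.53% of far-inside structures. At the substrate 9 of 73 were higher without H2AX (12.3%, background 5.45% and 6.07%) and 7 were lower (9.59%, background 18.3% and 8.23%). At both breaks the share of members that were higher without H2AX was above the background, and the share that were lower was close to that of far-inside structures. A structure listed in 1 table only cannot be called in either direction here. Over all tables of a break, such structures were 61.2% (Jk1) and 65.8% (substrate) of far-inside structures, against 33.8% and 41.0% of members. The background therefore held more structures that could not pass. No test was made of these counts.

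Without 53BP1 at Jk1, where a single line has to pass, 23 of 60 members were higher (38.3%), below the 47.3% of all and 53.7% of far-inside structures, and 10 were lower (16.7%, background 18.6% and 11.4%). At the substrate 3 of 64 were higher (4.69%, background 4.53% and 5.27%), those at 127, 128 and 154 nt, of which the last 2 are named only because they met this count. Another 8 were lower (12.5%, background 18.2% and 8.52%). These shares lay near or below that of all structures, while the shares of lower members were above those of far-inside structures. Structures listed in 1 table only could not be called lower at either break, or higher at the substrate. At Jk1, by contrast, any end listed in 53BP1-/- line B and in neither Lig4-/- line was higher by construction. Over all Jk1 tables, structures listed in 1 table only were 61.2% of far-inside structures but 33.8% of members. The lower share of higher members at Jk1 is therefore not read as a result about the members. The median member difference in line-mean share was within 0.00137 points of 0 in each comparison, as was that of all structures.

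The lines of a genotype shared a part of their abundant members. Of 335 listings of a member in a table, 107 had under 10 reads, 24 had 10 to 49 and 204 had 50 or more, so listings were either faint or well covered. The faint ones held 0.0729% to 0.790% of the class reads of a table. At 50 reads or more, Lig4-/- lines A and B had 24 and 14 members at Jk1 and shared 7 of them, and at the substrate they had 15 and 22 and shared the 5 at 27, 73, 117, 162 and 163 nt. H2AX-/- lines 5 and 8 had 18 and 27 such members at Jk1 and shared 8, and 10 and 30 at the substrate and shared 7. 53BP1-/- line C had 4 such members at the substrate against 20 in line B, with the ends at 128 and 170 nt in common. No member reached 50 reads in every table of its break.

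**Figure D4:**
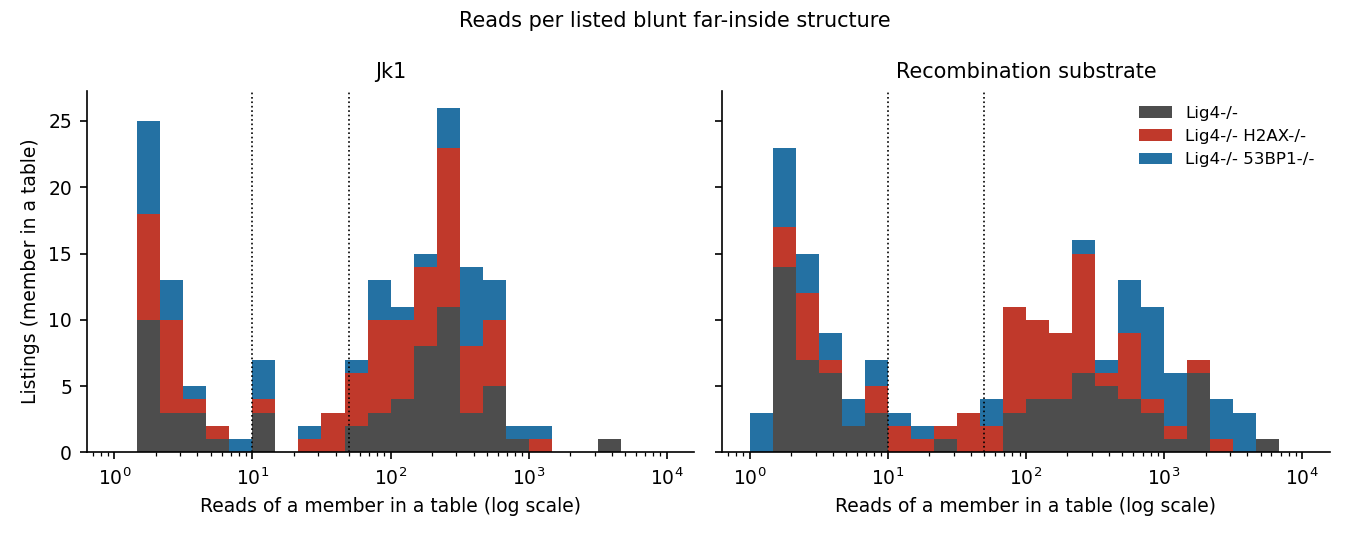
Number of listings of a blunt member in a table by its reads (log scale), stacked by genotype, at Jk1 (left) and the substrate (right); dotted lines mark 10 and 50 reads. Few listings fall between the lines (13 of 162 at Jk1 and 11 of 173 at the substrate).

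The spread of members over tables was set against that of all ends. At Jk1 25 of 74 members (33.8%) were listed in 1 table only, against 56.3% of all structures and 61.2% of far-inside ones, and at the substrate 32 of 78 (41.0%), against 59.7% and 65.8%. Those listed in every table were the ends at 45, 65, 83 and 138 nt at Jk1 (5.41%, against 5.59% of all structures and 2.72% of far-inside ones) and at 164 and 170 nt at the substrate (2.56%, against 1.71% and 0.516%). These shares are descriptions, with no test.

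The weight of a single end in the class varied between lines of the same genotype. The most abundant member held 13.2% and 44.3% of the class in Lig4-/- lines A and B at Jk1, 14.6% and 17.6% in the H2AX-/- lines and 13.9% in 53BP1-/- line B. At the substrate it held 29.9% and 11.5%, then 45.3% and 18.8%, then 17.9% and 48.6%. Expressed as an effective number of equally abundant members (the inverse of the summed squared shares), the class held 4.46 in Lig4-/- line B to 16.9 in line A at Jk1, and 2.75 in 53BP1-/- line C to 17.2 in Lig4-/- line B at the substrate. The extremes at Jk1 were therefore the 2 lines of the reference genotype.

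Along the resected region the blunt share of reads rose and fell from bin to bin. In Lig4-/- line A at the substrate, 51.2% of reads with a loss of 120 to 139 nt and 54.2% of those with a loss of 160 to 179 nt were blunt. The second zone was also blunt-rich in Lig4-/- line B (21.2%), H2AX-/- lines 5 and 8 (20.7% and 19.6%) and 53BP1-/- lines B and C (12.5% and 13.98%), whereas 120 to 139 nt gave 0.159% in Lig4-/- line B and 0.619% in H2AX-/- line 5. At Jk1 no bin exceeded 17.6%, the value of Lig4-/- line B at 80 to 99 nt. In the bin of 120 to 139 nt at Jk1, 0.0344% and 0.0526% of reads were blunt in the Lig4-/- lines, against 2.89%, 5.14% and 3.49% in the mutant tables. It was the only one of the Jk1 bins with blunt reads in which all mutant tables stood above both Lig4-/- tables. The ends at 132 and 138 nt, named above, held 457 and 648 of its 1332 blunt reads in H2AX-/- line 5. They held 370 and 1383 of 2610 in line 8 and 566 and 959 of 2594 in 53BP1-/- line B, so this bin largely repeats those ends.

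**Figure D5:**
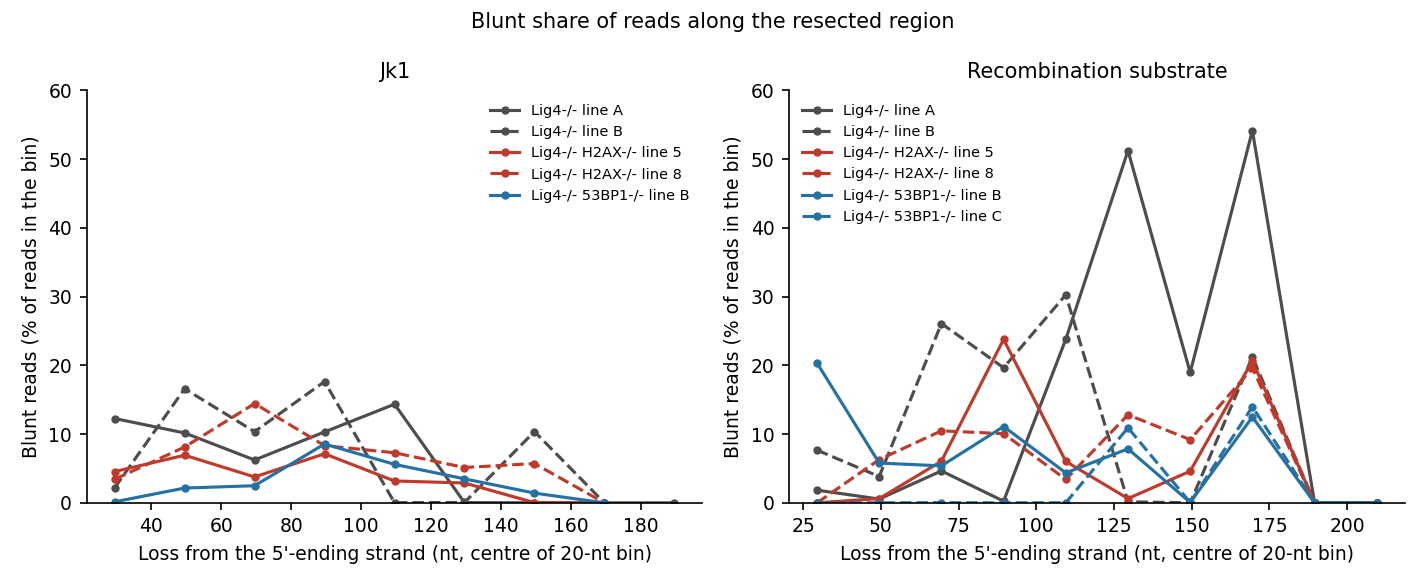
Blunt reads as percent of all reads in bins of 20 nt of loss from the 5′-ending strand, per table, at Jk1 (left) and the substrate (right); solid and dashed lines are the first and second line of a genotype. Lig4-/- line A reaches 51.2% and 54.2% at the substrate, and all lines are at 0 beyond the last member.

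Members stopped before the measured region did. The last was at 153 nt at Jk1 and 178 nt at the substrate, although 5′-ending strands were read to losses of 171 to 181 nt and of 206 to 207 nt. At the substrate, reads beyond the last member were 1.61% to 13.3% of far-inside reads, and each of them had a 3′ overhang. At Jk1 they were 2.87% to 10.7% of far-inside reads, of which 85.9% to 99.9% had a 3′ overhang and the rest a 5′ overhang of 1 or 2 nt.

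Blunt ends were also set beside ends that differ from them by 1 nt. At the substrate overhang 0 was the most frequent of all overhang lengths among far-inside reads in 4 of the 6 tables, with rank 2 in H2AX-/- line 5 and rank 4 in 53BP1-/- line C. At Jk1 it had ranks 4 and 5 in Lig4-/- lines A and B, 9 and 4 in H2AX-/- lines 5 and 8 and 7 in 53BP1-/- line B. In both Lig4-/- lines at Jk1 the most frequent was instead a 3′ overhang of 1 nt, with 11.6% and 10.6% of far-inside reads against 7.42% and 6.21% for blunt ends. A 5′ overhang of 1 nt had 5.11% and 5.20% there, and 5.53%, 8.21% and 5.19% in the mutant tables, where it exceeded the blunt ends in each.

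Some abundant members stood alone at their base when only the 5′-ending strand was looked at. At the substrate 7 of the 15 members with 50 reads or more in Lig4-/- line A, and 9 of 22 in line B, made up 95% or more of the reads whose 5′-ending strand stopped there, and these held 63.8% and 49.1% of the class. In the H2AX-/- lines they numbered 2 of 10 and 4 of 30 (48.8% and 4.17% of the class), and in the 53BP1-/- lines 4 of 20 and 1 of 4 (18.4% and 11.3%). At Jk1 such lone ends were fewer, from 0 of 27 in H2AX-/- line 8 to 3 of 14 in Lig4-/- line B, and held at most 17.2% of the class. Fewer still were alone on both strands. At the substrate these were 3 and 5 in Lig4-/- lines A and B and 1 in H2AX-/- line 5, with 0 in every other table of either break.

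Ends on either side of the rule were uneven too. At Jk1 no table listed a blunt end at a loss of 18 or 19 nt, while the end at 20 nt had 696 and 257 reads in the Lig4-/- lines and the end at 21 nt had 216 reads in Lig4-/- line A, 3 and 27 in the H2AX-/- lines and no listing in the others. At the substrate, just outside the rule, the end at 18 nt had 16 and 54 reads in the Lig4-/- lines and 3 in H2AX-/- line 5, and the end at 19 nt had 641 and 4 reads in the Lig4-/- lines. Just inside, the end at 20 nt had 3 reads in Lig4-/- line B, and the end at 21 nt had 3 and 102 reads in the Lig4-/- lines. No mutant table listed a substrate end at 19, 20 or 21 nt.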

How the data were processed

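Per the labels' protocols, HCoDES products were sequenced on an Illumina MiSeq. The authors deposited, for each line and break, raw read counts per end structure with its position and overhang, pooled over 3 libraries. Which aligner, filters and build lie behind them is not given in the sources used here. Of the 11 RAG tables, 1 lists structures with a single read, and the others list 2 reads or more, so an end was called not listed, never absent. Another 2 tables repeated values and were left out. Members and rules were chosen with earlier results of these data known. Named ends were, per break, the 5 highest line means of each genotype, the 3 largest rises and falls in each comparison, the ends listed in every table and those at the rule's edge. Shares were compared by two-sided Fisher's exact tests of pooled reads for each pair of lines (28 pairs in 8 comparisons, Benjamini-Hochberg adjusted, threshold 0.05), called when each pair passed in the same direction, and by exact permutation over lines. Fisher tests compare pools of reads, not genotypes. Python 3.11.15, pandas 2.3.3, scipy 1.17.1 and statsmodels 0.14.6 were used, and the scripts were tested on simulated data.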

Additional observations from a re-analysis of the deposited data

Results flagged for a closer look

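A further table, outside the comparisons, holds a separate PCR for de novo breaks at the substrate in Lig4-/- H2AX-/- line 8. Its positions run from 121 to 328, and whether they share the scale of the regular substrate PCR is not stated. The position rule keeps every blunt read, so the value was not read as a loss. Blunt ends took 8.99% of its 68969 reads (95% Clopper-Pearson interval 8.77% to 9.20%), spread over 21 structures. In the KpnI control, blunt ends at any position took 0.0504% of reads (0.0428% to 0.0590%). The most abundant end structure of that control had a 3′ overhang of 4 nt, so a low blunt share was fixed by the choice of enzyme. The difference between the tables is therefore no test of the de novo ends. They also differ in PCR, and the part of that was not tested.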

How the results depend on the processing

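Differences are given in points, mutant minus Lig4-/-. Settings other than leaving out a line kept 53 share differences on their side of the threshold, while 7 were no longer called, 7 became called and 5 changed direction. All 16 counts stayed within 1.5 times. Some of the 53 were fixed in advance. A minimum of 2 reads can change only the table that lists single reads, 53BP1-/- line C at the substrate. Run 4 alone uses the same lines for 53BP1 at Jk1. With each structure counted once, no comparison was called: the blunt share of far-inside ends was 0.858 without H2AX at Jk1 and -0.745 at the substrate, and -1.78 and -3.50 without 53BP1, while the share of all ends was 0.0359 without H2AX at the substrate and -0.681 and -1.72 without 53BP1 at Jk1 and the substrate. With a position minimum of 12, the share of all reads turned to -0.771 (not called) at Jk1 and -1.19 (called) at the substrate without 53BP1 and fell to 1.73, not called, without H2AX at the substrate; the H2AX far-inside difference at Jk1 became -3.57 and was called. With overhangs of 1 nt counted as blunt, H2AX at Jk1 gave 6.01 of all and -6.72 of far-inside reads, both called, and -3.94 of far-inside reads at the substrate, not called. Without the most abundant member, the share of all reads gave 1.69 (called) at Jk1 and 2.40 (not called) at the substrate without H2AX. With the minimum on both strands the H2AX far-inside difference at Jk1 was -2.53, called. Run 4 alone gave -3.71 for it and 1.74 for the 53BP1 share of all reads at the substrate, both called. Leaving out 1 line at a time gave, for the share of all reads, 0.415 to 2.79 (H2AX, Jk1), 2.16 to 5.59 (H2AX, substrate), 0.102 to 1.12 (53BP1, Jk1) and 0.340 to 1.77 (53BP1, substrate), and for far-inside reads -3.71 to -0.738, -6.14 to -2.10, -4.08 to -2.87 and -9.24 to -5.88. At Jk1, 10 to 25 members were then higher without H2AX and 7 to 21 lower, and at the substrate 11 to 31 and 10 to 24; without 53BP1, 27 to 29 and 3 to 18 were higher and 19 to 28 and 8 to 25 lower. A lone remaining line passes the rule more easily, so these counts rise by construction. The cause of the other changes was not tested. No paired analysis was possible because each table pools the libraries of a line and the lines of different genotypes share no number in the labels. Depth limits ends near 2 reads, the fewest most tables list.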
